A study of Mus musculus with 8 samples.

Results

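Cyclic nucleotide phosphodiesterases were examined in nuclear RNA of mouse hippocampal pyramidal cells that had been identified as place cells, cells that fire at particular locations. The 10 genes are Pde1a, Pde1b, Pde1c, Pde2a, Pde4a, Pde4b, Pde4d, Pde7a, Pde8b and Pde10a. They were chosen by name, and all 10 were present among the 15519 genes of the deposited table. The study used two-photon imaging in the living animal to classify place cells as Day 0 or Recurring, then light to tag their nuclei for collection. Each class was represented by 4 libraries, all from the hippocampus of wild-type (WT) mice. The labels give no treatment, age, sex or number of nuclei, and do not define the classes further. The titles carry a different mouse number for each library but say no more on their origin, so the spread that p-values rest on is that among these 8 libraries. All differences are Recurring minus Day 0 on a log2 scale.

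Phosphodiesterases end a cyclic nucleotide signal by hydrolysing cAMP or cGMP, the intracellular messengers made by adenylyl and guanylyl cyclases. Because each enzyme is anchored at particular sites in the cell, the set of phosphodiesterases a neuron makes shapes where cAMP can reach protein kinase A, Epac proteins and cyclic nucleotide-gated channels. In hippocampal neurons cAMP signalling is known for its part in long-lasting synaptic plasticity and memory, and PDE4 enzymes, the targets of rolipram, are the best studied of the enzymes that limit it.

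Libraries held 8374986 to 14887866 recovered reads and 10718 to 13807 detected genes. Of these reads, 5466 to 11129 per library fell in the 10 phosphodiesterase genes. Values below are normalized counts, that is recovered whole reads divided by a library size factor, or log2 of the normalized count plus 1. As a list, markers of CA1 pyramidal neurons were abundant in every library. All 14 were tested and Zbtb20 was highest. Their mean log2 level was 9.98 ± 0.435 in Day 0 and 10 ± 0.429 in Recurring libraries (SD, n = 4). Single markers went both ways, 7 higher and 7 lower in Recurring libraries, by -1.65 to 2.75. Camk2a differed by -1.09 (SE 0.42), with every Recurring library below every Day 0 library. Over all tested genes 1.17% separated in this direction. In these pooled-nuclei libraries, fewer cells making a transcript and less of it per cell cannot be told apart.

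No phosphodiesterase gene differed between Recurring and Day 0 place cells at the adjusted threshold. Pde1c was too low to test. Of the other 9, limma called 0 at an adjusted p under 0.05, where it called 0 of 11078 genes over the whole table (0%), and 0 at an unadjusted p under 0.05, where 3.62% of all tested genes passed (1.74% with lower values in Recurring cells). The voom form of limma also called 0 genes, with 518 at an unadjusted p under 0.05 against 401. Means were lower in Recurring cells for 7 of the 9 and higher for Pde4b and Pde4d. Over all tested genes 49.9% had lower means. The median difference of the 9 was -0.44, against 0.00 over all tested genes. Only Pde4a had groups that did not overlap, with every Recurring library below every Day 0 library. Over all tested genes 2.41% separated in either direction and 1.17% in this one.

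**Figure D1:**
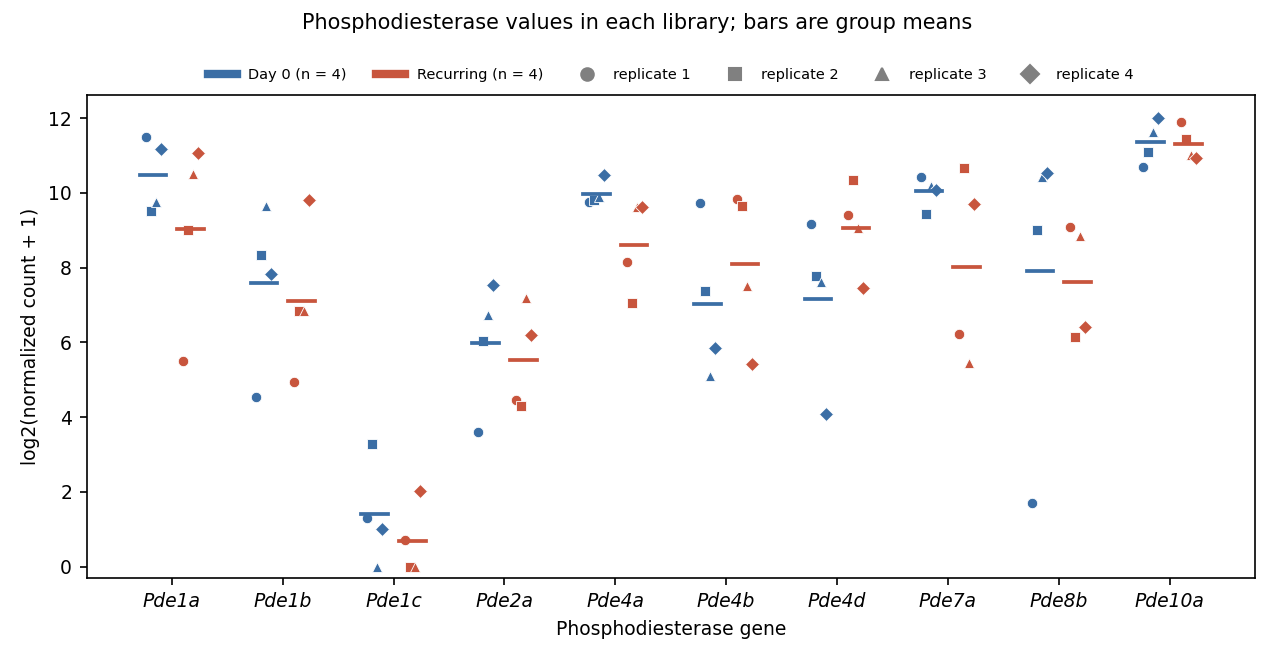
Log2(normalized count + 1) of each phosphodiesterase gene (horizontal axis) in 4 Day 0 and 4 Recurring libraries, with symbols for replicates and bars for group means. Pde10a stays between 10.69 and 12.01 in the 8 libraries, while Pde8b runs from 1.69 to 10.53.

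The PDE1 enzymes are switched on by calcium and calmodulin and hydrolyse both cyclic nucleotides, so they link calcium entry to the loss of cAMP and cGMP. Pde1a had normalized counts of 2897, 729, 866 and 2298 in Day 0 replicates 1 to 4 and of 44.6, 519.9, 1468 and 2154 in Recurring replicates 1 to 4. Recurring replicate 1 was far below the other libraries, and the rest of the groups overlapped. The log2 means were 10.48 ± 0.99 and 9.03 ± 2.50 (SD, n = 4), a difference of -1.45 (SE 0.99, limma adjusted p = 0.981). Without Recurring replicate 1 the difference was -0.29.

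Pde1b, a calcium-activated isoform most associated with dopamine-responsive neurons, had normalized counts of 22.3, 323, 808 and 226.5 in Day 0 replicates 1 to 4. In Recurring replicates 1 to 4 it had 29.7, 113.8, 113.3 and 899.9. It was low in replicate 1 of both groups and highest in Recurring replicate 4, and the groups overlapped over nearly their whole range. The difference was -0.48 (SE 1.57, 95% interval -3.81 to 2.84, limma adjusted p = 0.998). The 2 genes did not rise and fall together. The log2 ratio of Pde1a to Pde1b reads, which no scaling of libraries enters, ran from 0.10 to 7.02 in Day 0 and from 0.58 to 3.70 in Recurring libraries.

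Pde1c, the third PDE1 gene, was close to the detection limit. Day 0 replicates 1 to 4 yielded 2, 11, 0 and 1 reads of it, and Recurring replicates 1 to 4 yielded 1, 0, 0 and 3. A library with 0 reads allows up to 3. Since 7 of the 8 libraries were at or under that limit, no fold is given, and a difference was not detectable at this depth.

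Pde2a and Pde10a also act on both cyclic nucleotides. Pde2a is stimulated by cGMP, which lets one messenger speed the removal of the other. It was read in all 8 libraries at low levels, with normalized counts of 11.2, 65.4, 105.2 and 183.4 in Day 0 replicates 1 to 4 and of 21.1, 18.6, 145.1 and 73.0 in Recurring replicates 1 to 4. The groups overlapped, with a difference of -0.44 (SE 2.05, 95% interval -4.77 to 3.89, limma adjusted p = 0.998). In GENCODE vM21, 64.3% of the exon bases of Pde2a lie in exons of the predicted gene Gm45837 on the same strand. Depending on how reads in shared exons were counted, which is not given in the sources used here, the count of Pde2a is therefore uncertain.

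Pde10a, best known from striatal medium spiny neurons, was the most abundant phosphodiesterase of these hippocampal libraries by reads and the steadiest. Its normalized counts were 1655, 2209, 3173 and 4132 in Day 0 replicates 1 to 4 and 3834, 2770, 2060.4 and 1963 in Recurring replicates 1 to 4. The highest library was 2.5-fold above the lowest, and the groups overlapped throughout. The log2 means were 11.36 ± 0.58 and 11.32 ± 0.45 (SD, n = 4), a difference of -0.04 (SE 0.43, limma adjusted p = 0.998). Its 95% interval, -0.95 to 0.87, was the narrowest of the 9 and in this fit excludes a change of 2-fold in either direction. That exclusion did not hold under every alternative. The SE of Pde10a was 0.64 in limma without a variance trend. Without Day 0 replicate 1 the difference of Pde10a was -0.28 (SE 0.44). Its residual SD of 0.52 was larger than that of only 5.04% of tested genes, and its mean was above that of 95.4% of them. Of 9 striatal medium spiny markers 3 were in the table, with Penk highest, and their mean log2 level ranged from 4.60 to 8.77 in Day 0 and from 4.44 to 5.69 in Recurring libraries. Day 0 replicate 4 was highest both in that level and in Pde10a. The 3 markers did not move together, however. Penk had its most reads, 6981, in Recurring replicate 2, the library with the lowest level, against 2514 in Day 0 replicate 4. Ppp1r1b had 857 reads in Day 0 replicate 2 and 158 in Day 0 replicate 4. Rgs9 was highest in Day 0 replicate 4, at 204 reads. The part of striatal cells in the Pde10a values was not tested. The striatal receptor genes Drd1, Drd2 and Adora2a were not analysed here.

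The PDE4 genes encode cAMP-specific enzymes, many of whose isoforms arise from alternative promoters and are anchored by different partners. Several PDE4 promoters are known to respond to cAMP itself, through the cAMP response element (CRE, TGACGTCA) that CREB binds. The counts pool all isoforms of a gene, so the RefSeq start sites are shown here to make clear what sits upstream of them. The 250 bases before a start (build GRCm38.p6) are printed for the Pde4a and Pde4b windows that hold the CRE core TGACG on either strand, 1 of 3 and 1 of 4 windows, and for the single Pde4d window. Capitals mark the core, which in both genes lies on the strand opposite to the gene and so reads CGTCA.
Pde4a, chr9:21183851-21184100, + strand: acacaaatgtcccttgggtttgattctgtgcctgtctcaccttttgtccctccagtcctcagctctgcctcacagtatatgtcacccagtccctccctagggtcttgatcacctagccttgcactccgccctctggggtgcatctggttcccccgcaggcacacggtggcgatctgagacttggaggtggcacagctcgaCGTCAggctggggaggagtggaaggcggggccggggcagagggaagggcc
Pde4b, chr4:102421305-102421554, + strand: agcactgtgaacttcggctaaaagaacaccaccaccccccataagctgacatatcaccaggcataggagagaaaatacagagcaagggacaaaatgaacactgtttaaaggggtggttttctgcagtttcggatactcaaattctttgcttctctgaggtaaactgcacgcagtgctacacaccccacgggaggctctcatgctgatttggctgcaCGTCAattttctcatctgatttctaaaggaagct
Pde4d, chr13:108653927-108654176, + strand: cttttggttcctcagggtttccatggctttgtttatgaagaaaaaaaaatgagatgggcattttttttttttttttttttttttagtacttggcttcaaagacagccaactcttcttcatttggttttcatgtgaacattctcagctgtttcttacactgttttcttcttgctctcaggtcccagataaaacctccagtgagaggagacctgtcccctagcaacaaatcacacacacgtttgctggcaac

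The core lay 50 bases before the Pde4a start and 34 bases before the Pde4b start, counted from its first base. Of the 10 genes 9 matched the RefSeq promoter table, with 30 windows, of which 3 held the core (Pde1a, Pde4a and Pde4b) and 0 the full CRE. Among all 32851 windows of the same length, 17.8% held the core and 1.55% the full CRE. The 30 windows are few and some overlap, as in Pde8b. They therefore cannot show whether phosphodiesterase promoters differ from those shares. A match is a run of letters and says nothing of binding in these cells.

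Pde4a had normalized counts of 865.5, 903, 948 and 1416 in Day 0 replicates 1 to 4 and of 281, 131.6, 788 and 784 in Recurring replicates 1 to 4. Recurring replicates 3 and 4 lay just under the lowest Day 0 library, and Recurring replicates 1 and 2 lay far under it. The log2 means were 9.98 ± 0.33 and 8.61 ± 1.25 (SD, n = 4), a difference of -1.38 (SE 0.77, 95% interval -3.00 to 0.25, limma adjusted p = 0.981). The groups also did not overlap with trimmed-mean-of-M-values (TMM) sizes, total reads or the deposited values as they stand. Without Recurring replicate 2 the difference was -0.86.

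Pde4b and Pde4d were the pair with higher means in Recurring cells. Pde4b had normalized counts of 854, 165.1, 33.5 and 56.1 in Day 0 replicates 1 to 4 and of 925, 809, 180.1 and 41.6 in Recurring replicates 1 to 4. It was high in 3 libraries, Day 0 replicate 1 and Recurring replicates 1 and 2, and at 180.1 or less in the other 5. Its log2 means were 7.01 ± 2.05 and 8.11 ± 2.09 (SD, n = 4), a difference of 1.09 (SE 1.49, 95% interval -2.06 to 4.25, limma adjusted p = 0.998). It was 1.99 without Day 0 replicate 1 and 0.45 without Day 0 replicate 3.

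Pde4d had normalized counts of 575, 219, 194.8 and 16.0 in Day 0 replicates 1 to 4. In Recurring replicates 1 to 4 it had 686, 1315, 531 and 173.5. Day 0 replicate 4 was lowest and Recurring replicate 2 highest, and the groups overlapped. The log2 means were 7.16 ± 2.16 and 9.07 ± 1.21 (SD, n = 4), a difference of 1.91 (SE 1.24, 95% interval -0.71 to 4.53, limma adjusted p = 0.981). Without Day 0 replicate 4 it was 0.89.

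Within the PDE4 subfamily, the balance of reads differed widely among libraries of the same group. The log2 ratio of Pde4a to Pde4d reads was 0.59, 2.04, 2.28 and 6.46 in Day 0 replicates 1 to 4 and -1.29, -3.32, 0.57 and 2.18 in Recurring replicates 1 to 4. Its means were 2.84 ± 2.53 and -0.46 ± 2.37 (SD, n = 4), and the groups overlapped. The ratio of Pde4a to Pde4b was negative only in Recurring replicates 1 and 2, at -1.72 and -2.62, and 0.02 to 4.82 in the other libraries. These ratios were not tested.

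**Figure D2:**
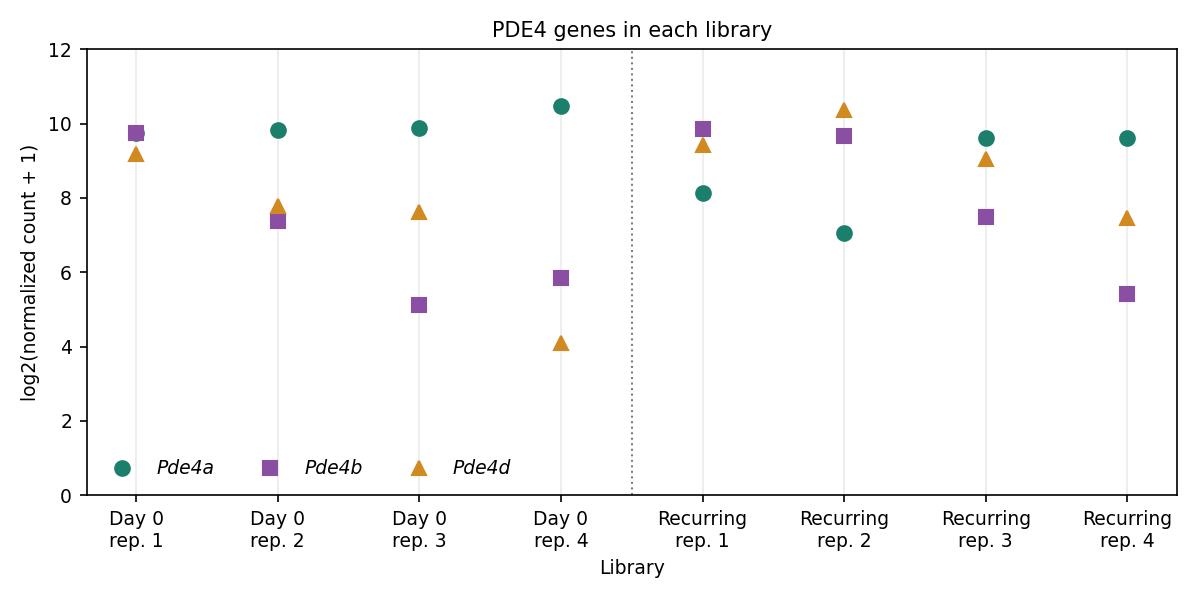
Log2(normalized count + 1) of Pde4a, Pde4b and Pde4d in each of the 8 libraries (horizontal axis; the dotted line divides Day 0 from Recurring). Pde4a lies at 7.05 and 8.14 in Recurring replicates 2 and 1 and at 9.62 to 10.47 elsewhere, while Pde4b is at 9.66 to 9.85 in 3 libraries and at 5.11 to 7.50 in the other 5.

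Astrocyte markers were highest in 2 of the 3 libraries high in Pde4b and lowest in the other. These markers, of which 11 of 12 were in the table and Slc1a2 was highest, stood at a mean log2 level of 9.41 and 8.43 in Recurring replicates 1 and 2 and at 5.17 to 7.86 in the 5 libraries low in Pde4b, with Day 0 replicate 1 below all of these. Interneuron markers, 10 of 12 in the table with Sst highest, stood at 6.19 in Day 0 replicate 1, 3.14 in Recurring replicate 1 and 8.64 in Recurring replicate 2, against 1.92 to 5.12 in the others. Their part in the Pde4b and Pde4d values was not tested.

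The remaining members, Pde7a and Pde8b, encode cAMP-specific enzymes with high affinity that rolipram does not inhibit. Pde7a had normalized counts of 1391, 700.2, 1158 and 1086.5 in Day 0 replicates 1 to 4. In Recurring replicates 1 to 4 it had 74.3, 1622, 42.4 and 835.0. Recurring replicates 1 and 3 were far below every Day 0 library, replicate 4 lay within the Day 0 range and replicate 2 above it. The log2 means were 10.04 ± 0.42 and 8.01 ± 2.56 (SD, n = 4), and the difference, -2.03 (SE 1.06, 95% interval -4.27 to 0.21), had the smallest unadjusted p of the 9 (limma adjusted p = 0.981). It was -1.17 without Recurring replicate 3 and -2.91 without Recurring replicate 2. The unadjusted limma p was under 0.05 without Recurring replicate 2, without Recurring replicate 4 and with library weights, while the adjusted p ran from 0.930 to 0.995 over leaving out each library.

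Pde8b varied most. It had normalized counts of 2.23, 515, 1383 and 1476 in Day 0 replicates 1 to 4 and of 547, 69.4, 462 and 84.2 in Recurring replicates 1 to 4. Day 0 replicate 1 held only 3 reads of the gene and stood apart from the rest of its group, which lay above all but 1 Recurring library. The log2 means were 7.92 ± 4.21 and 7.63 ± 1.57 (SD, n = 4), a difference of -0.29 (SE 1.75, 95% interval -3.98 to 3.40, limma adjusted p = 0.998). Without Day 0 replicate 1 it was -2.38, with an unadjusted limma p under 0.05, while the adjusted p ran from 0.970 to 0.999 over leaving out each library. In GENCODE vM21, 7.6% of the exon bases of Pde8b overlap an exon of the predicted gene Gm48420 on the other strand, and the sources used here do not say whether strand was used in counting.

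**Figure D3:**
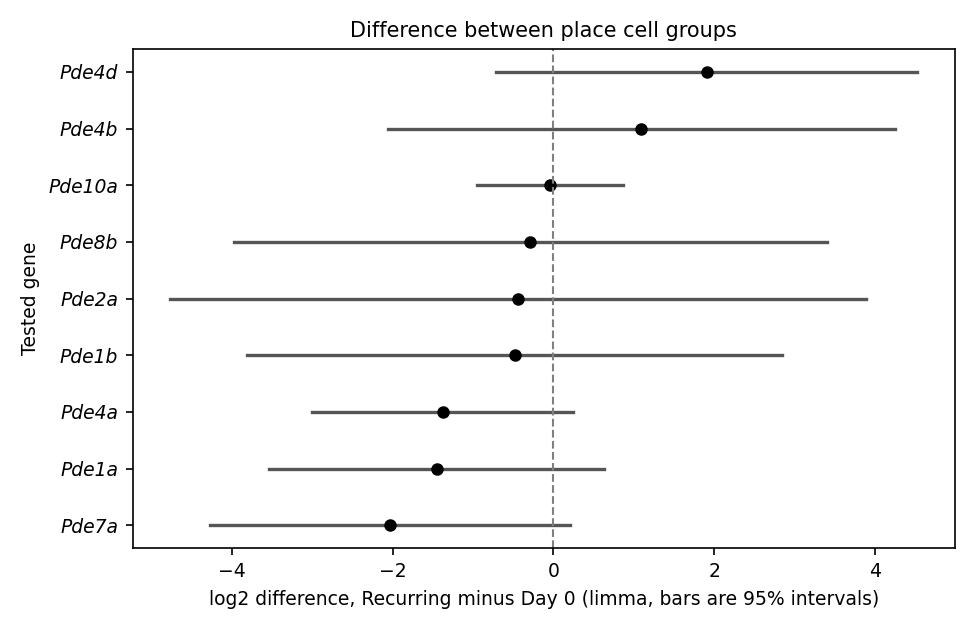
Log2 difference, Recurring minus Day 0, of the 9 tested phosphodiesterase genes with 95% intervals from limma. Every interval includes 0, from Pde7a at -2.03 to Pde4d at 1.91, and that of Pde10a, -0.95 to 0.87, is the narrowest.

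To compare the genes with each other, normalized counts were divided by the length of all annotated exons together (GENCODE vM21), 5.40 kb in Pde1b to 20.1 kb in Pde1c. By mean log2 level per kilobase over the 8 libraries the order was Pde10a, Pde1a, Pde4a, Pde7a, Pde8b, Pde1b, Pde4d, Pde4b, Pde2a and Pde1c. The median normalized count per kilobase was 194 for both Pde10a and Pde1a, 108 for Pde4a, 11.3 for Pde2a and 0.0404 for Pde1c. Neighbours in this order mostly could not be separated. Pde10a was above Pde1a in only 4 of 8 libraries (log2 gap 0.49 ± 2.21, SD, n = 8), and Pde1a above Pde4a in 7 of 8 (0.81 ± 1.50). Pde2a was above Pde1c in 8 of 8, the only gap between neighbours larger than its SD (6.43 ± 1.87). Genes with several start sites use fewer of these exons per transcript, so their levels are understated. Pde4d, with 20 annotated transcripts over a gene of 1503.5 kb, has the most.

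Other genes named as phosphodiesterases or as their subunits added little. Of 14 such genes 8 were in the table and 4 were tested, with 0 passing. Means were higher for 2 and lower for 2, Pde3b and the subunit gene Pde6d. Pde3b, a cGMP-inhibited enzyme, had the highest mean, with log2 means of 8.09 ± 3.38 for Day 0 and 7.65 ± 3.42 for Recurring libraries (SD, n = 4). Pde5a, the cGMP-specific enzyme that sildenafil inhibits, had the smallest p, at 1.29 ± 2.57 and 4.55 ± 3.48, a difference of 3.26 (SE 2.09, limma adjusted p = 0.981). It had reads in only 4 libraries and a median normalized count of 0 in Day 0. The size of its difference therefore depends on the pseudocount, and no fold is given.

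The enzymes that make cyclic nucleotides and the proteins that read them also held no gene past the threshold. Of 10 adenylyl cyclases 8 were tested, 3 with higher and 5 with lower means and a median difference of -0.07. Adcy1, the calcium-stimulated cyclase, had both the highest mean and the smallest p, at 11.75 ± 0.65 and 12.33 ± 0.69 (difference 0.58, SE 0.42, limma adjusted p = 0.981). Of the 11 guanylyl cyclase and nitric oxide synthase genes 4 were tested, 3 higher and 1 lower. Gucy1a2 and Gucy1b1, subunits of the nitric oxide receptor, differed by 0.94 (SE 1.10) and -1.64 (SE 1.47).

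Among 23 effectors of cAMP and cGMP 10 were tested, 9 with higher and 1 with lower means in Recurring cells, a median difference of 0.58, and 0 passed. Over all tested genes 49.9% had lower means. Of the 9 counted as higher, Prkar1a and Bves differed by 0.00. Prkar2b, with reads in 4 libraries, differed by 0.20 (SE 2.46). Rapgef4, the cAMP-activated exchange factor Epac2, stood at 11.27 ± 0.45 and 12.09 ± 0.56 (SD, n = 4), a difference of 0.82 (SE 0.40, limma adjusted p = 0.981). Prkar1a, a regulatory subunit of protein kinase A, was the most abundant and differed by 0.00 (SE 0.46).

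Of 16 partners and anchors of phosphodiesterases 15 were tested, 8 higher and 7 lower. Prkar2a, the regulatory subunit through which protein kinase A binds many anchors, had the smallest p and also stands among the effectors. It differed by 3.18 (SE 1.61, limma adjusted p = 0.981). Calm2, a calmodulin gene and so an activator of the PDE1 enzymes, differed by 0.32 (SE 0.31). In the CREB family and its coactivators all 8 genes were tested, 5 higher and 3 lower. The coactivator gene Crtc3 differed by -3.09 (SE 1.79) and Crebbp, the histone acetyltransferase that CREB recruits, by 0.55 (SE 0.32).

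**Figure D4:**
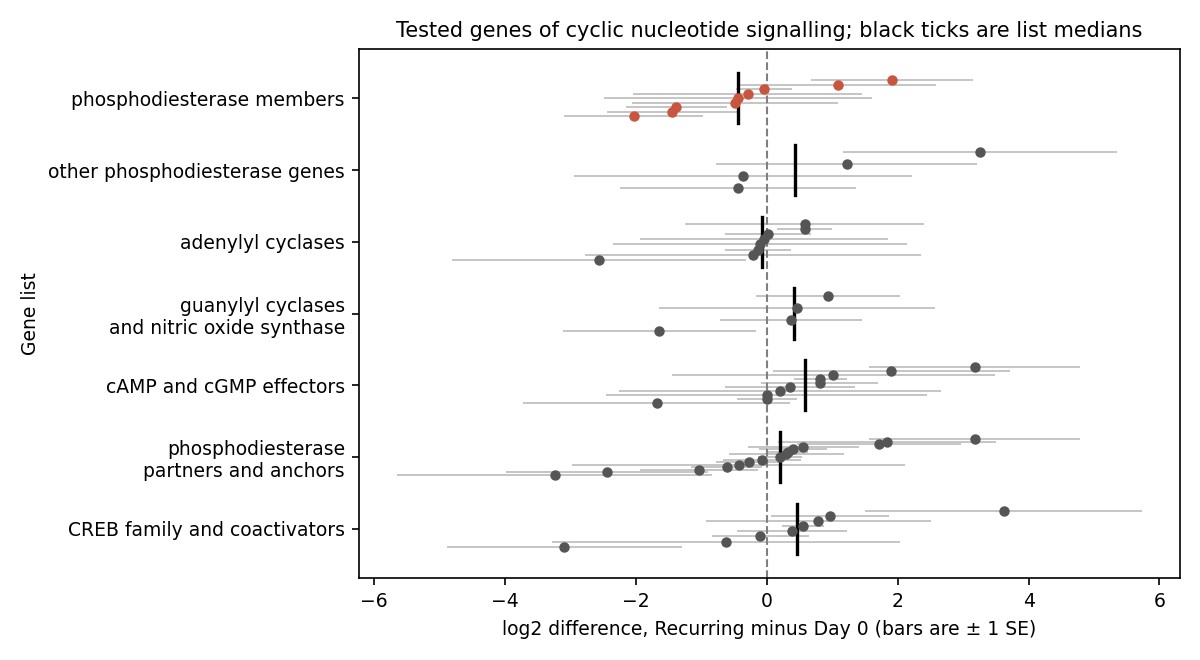
Log2 difference, Recurring minus Day 0, of every tested gene in 7 lists of cyclic nucleotide signalling (vertical axis), with bars of 1 SE and black ticks at list medians. The phosphodiesterase members have a median of -0.44 and the cAMP and cGMP effectors one of 0.58, and 0 genes of any list passed the threshold.

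By the fixed measure of likeness, the root mean square difference of log2 values centred on their own mean over the 8 libraries, 6983 genes were compared with Pde10a and with Pde7a. Plppr4, a phospholipid phosphatase-related gene of excitatory synapses, was nearest to Pde10a at 0.22, followed by a transcript without a gene symbol at 0.23 and the RNA-binding protein gene Ewsr1 at 0.26. Akt1, Nptx1 and Git1 were nearest to Pde7a, at 0.69, 0.75 and 0.85. Steady genes lie near each other by this measure whatever their order over libraries.

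No marker list passed the adjusted threshold between the groups. Over 10 marker lists and 3 library measures the smallest exact permutation p was 0.0571 (two-sided, n = 4 per group, adjusted p = 0.743), for microglia markers, with a mean log2 level of 1.55 to 4.64 in Day 0 and 3.45 to 9.93 in Recurring libraries. Of 9 microglia markers 5 were in the table, with Ctss highest, and 0 to 4 of those were at 0 reads in a library. Of 4 tested microglia markers 3 were higher and 1 lower in Recurring libraries, and 2 had an unadjusted limma p under 0.05. Of 10 tested astrocyte markers 7 were higher and 3 lower, and 3 had such a p. Over all tested genes 3.62% did. The astrocyte level differed by 1.53 (exact permutation p = 0.200). None of these markers passed the adjusted threshold. In other lists the highest genes were Rfx3 for dentate granule cells, Chgb for CA3 and CA2, Tnr for oligodendrocyte precursors and Slc2a1 for endothelial and mural cells. The part of other cell types in the phosphodiesterase values was not tested.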

How the data were processed

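Per the labels' protocols, nuclear RNA went into SMART-Seq mRNA LP libraries. The submitters' processing notes name STAR, HTSeq and GRCm39. Versions, strand setting and normalization are not given in the sources used here. The authors deposited a scaled signal for 15519 genes in 8 libraries. Within a gene these values were whole reads times a constant, which a TMM factor that treats genes as libraries, with Ptdss1 as reference, accounts for, with no correction for library depth. Dividing it out gave whole reads, within 0.1 read, for 95910 of 95910 values above 0. Normalized counts are these reads over size factors by median of ratios, 0.837 to 1.61.

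The 11078 genes that reached a normalized count of 10 in 4 or more libraries were tested on log2(normalized count + 1) with limma 3.58.1 (R 4.3.3), with a variance trend and Benjamini-Hochberg adjustment over all of them at 0.05. Folds on this scale understate changes of low genes. Pde1c did not reach this minimum and is described by its reads. Marker levels were compared by exact permutation over 70 assignments, which gives no p below 0.0286. The fit and the recovery were run on simulated data to check the code. That check does not measure what the fit can detect in these libraries. Samples were grouped by label, and replicates numbered in order of deposit. The genes, lists and tests were chosen with earlier results of these data known. All 10 genes are described. In each pathway list the tested genes with the smallest p and the highest mean are named. In marker lists the tested gene with the highest mean is named, except where it is not reported here. Genes named for likeness leave out predicted genes, clones and genes below the lowest tested phosphodiesterase. Alternatives were other pseudocounts, filters, scalings and limma settings, voom, and leaving out each library. The 95% intervals are from limma and rest on the spread between libraries, while the floor of 3 reads covers counting error only. Exon lengths came from GENCODE vM21 and promoters from RefSeq, both of an earlier build than the authors'.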

Additional observations from a re-analysis of the deposited data

How the results depend on the processing

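Calls of phosphodiesterase genes stayed at 0 under every alternative run, as did calls over all genes except that limma without a variance trend called 2 (adjusted p of 0.0300), neither a phosphodiesterase. The count of phosphodiesterase genes with an unadjusted limma p under 0.05, 0 as reported, became 1 in 4 alternatives: Pde7a with library weights (-2.28), without Recurring replicate 2 (-2.91) and without Recurring replicate 4 (-2.59), and Pde8b without Day 0 replicate 1 (-2.38). The 5 genes Pde1a, Pde4a, Pde4b, Pde4d and Pde7a kept the sign of their difference in 18 of 18 alternatives. Pde1b, Pde2a, Pde8b and Pde10a, whose differences were -0.48 or nearer to 0, did not. Pde10a differed by 0.06 with the deposited values, 0.00 with library weights and 0.10 with voom, Pde2a by 0.22 with library weights and Pde8b by 0.47 with voom. Leaving out each library in turn gave -0.28 to 0.18 for Pde10a, -1.25 to 0.08 for Pde2a, -2.38 to 0.58 for Pde8b and -1.52 to 0.22 for Pde1b. The CA1 marker level differed by -0.02 with total reads as the scale. Without single libraries it differed by -0.18 to 0.18, the dentate granule level by -0.05 to 1.30, the endothelial and mural level by -0.78 to 0.13 and the striatal level by -1.28 to 0.10. The planned negative binomial tests were not run, although whole reads had been recovered. Of tests on those reads voom was run. No paired analysis was possible because the labels give no replicate numbers that the groups share. The median standard error of 1.78 over all tested genes limits what 4 libraries per group can show.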
